A study of Mus musculus with 12 samples.

Results

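The genes described here encode the kainate-type glutamate receptor subunits (Grik1 to Grik5), their auxiliary proteins (Neto1 and Neto2) and the delta-type receptor GluD1 (Grid1). They were taken as the probe sets whose annotation names exactly one of these 8 genes, out of 19937 genes that a probe set names alone, and each of the 8 had 1 such probe set. Cells labelled with GFP were sorted from the cortex of C57BL6 mice in 4 groups of 3 arrays each. Interneurons were taken from mice carrying Nkx2-1Cre;RCE:LoxP, at P10 (IN P10) and P0 (IN P0). Pyramidal cells were taken from mice carrying NexCre;RCE:LoxP, at P12 (Pyr P12) and P0 (Pyr P0). In both lines the RCE reporter carries the GFP and recombination by Cre switches it on. Nkx2-1Cre acts in progenitors of the medial ganglionic eminence, so the GFP does not single out one interneuron type, and NexCre acts in young excitatory neurons. The older groups differ in age by population. The labels name the somatosensory area for the pyramidal cells alone, while the tissue is given as cortex for both populations. Whether the dissected area differed is not settled. The arrays were made to look for genes that set interneurons apart while their axons and synapses form, and for how each population changes over the first days after birth. In comparisons of IN with Pyr cells, any difference in area and, at the older stage, in age cannot be told apart from the population.

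Kainate receptors are glutamate-gated cation channels built from GluK subunits. GluK1, GluK2 and GluK3 can form channels by themselves, whereas GluK4 and GluK5 raise the affinity for glutamate but need one of those to reach the surface as a channel. Neto1 and Neto2 are transmembrane CUB-domain proteins that slow the receptor kinetics and influence where the receptors sit. Kainate receptors act on both sides of the synapse, and those containing GluK1 are best known from forebrain interneurons. GluD1 is not known to open as a typical glutamate-gated channel and serves as a synaptic adhesion receptor that binds secreted cerebellins bridged to neurexins.

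RNA was hybridized to Affymetrix Mouse Gene 1.0 ST arrays, and all values below are log2 signals after RMA (background correction, quantile normalization and summary of the probes). These signals ran from 4.74 to 14.73 over the 12 arrays. A difference was called when its Benjamini-Hochberg adjusted p in limma was under 0.05 and its fold change over 2, and a gene is said to rise or fall only where it was called. As background of an array served the 95th percentile of 1208 probe sets for olfactory or vomeronasal receptors, between 7.13 and 7.45, since these receptors belong to sensory neurons of the nose. All 8 genes were above it on every array. The depth of an array is not defined as for counts, and 3 arrays per group limit the precision. Arrays within a group correlated at 0.995 to 0.9986 and those of different groups at 0.9356 to 0.9809. Levels of different genes are not set against each other, because probe sets differ in brightness. In sorted populations, fewer cells expressing a gene and less RNA per cell cannot be told apart.

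Of the 8 genes, 4 were called in at least 1 of the 4 comparisons between groups (Grik1, Grik2, Grik3 and Neto1), and 4 in none (Grik4, Grik5, Neto2 and Grid1). The called ones were higher in interneurons than in pyramidal cells at one stage or both, and Grik1 and Neto1 also rose in pyramidal cells with age. The group means of Grik1 spanned 4.01 on the log2 scale, those of Neto1 2.92, of Grik2 1.83 and of Grik3 1.42. The spans of Grik4 and Neto2 were 0.97 each, that of Grid1 0.53 and that of Grik5 0.39.

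**Figure D1:**
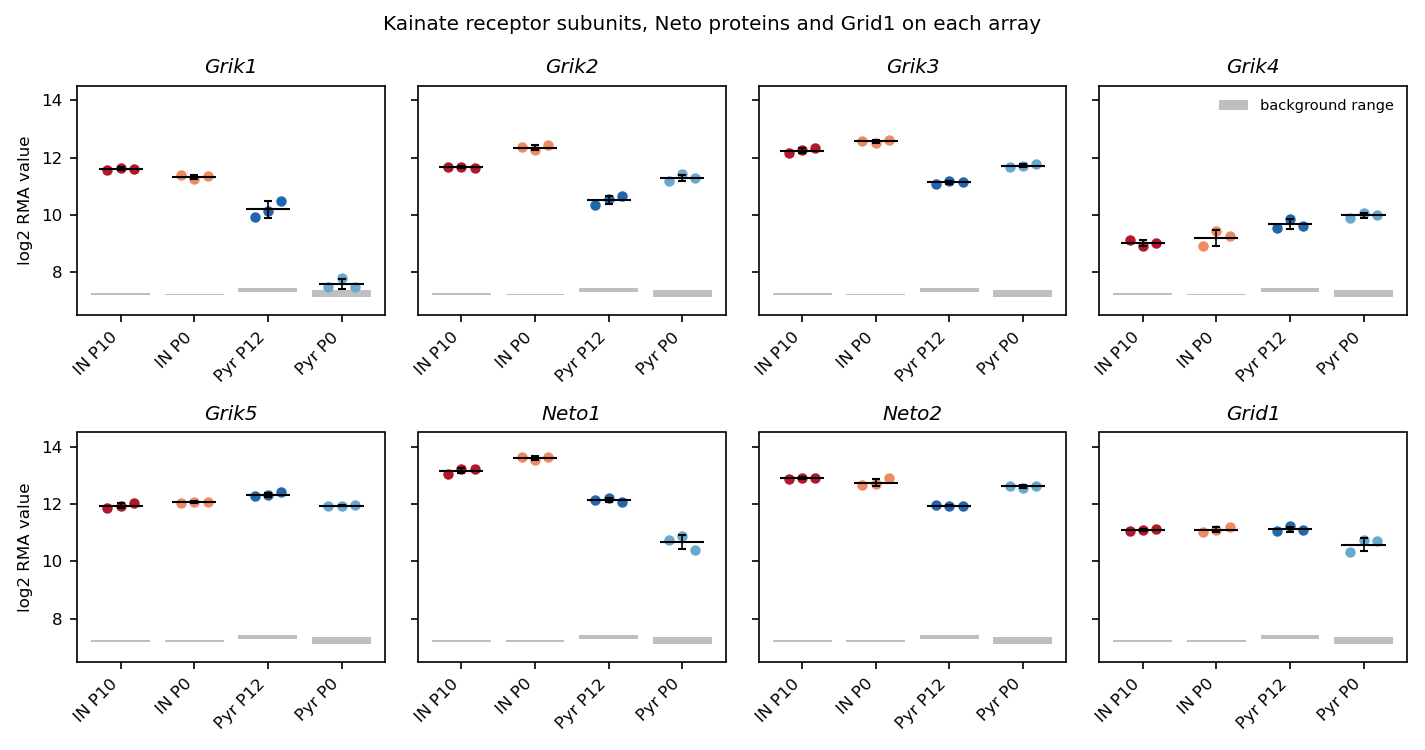
Log2 RMA values (y axis) of the 8 genes on each array, by group (x axis), with points for arrays, horizontal lines for the means, error bars for the SD (n = 3) and grey bars for the background range of the group's arrays. Grik1 is near background only in Pyr P0, at 7.50 to 7.81, and Neto1 is lowest in Pyr P0, at 10.41 to 10.89.

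Grik1, which encodes the GluK1 subunit, had the widest range of the family. Its signals were 11.56, 11.65 and 11.62 in IN P10 and 11.39, 11.25 and 11.36 in IN P0. They were 9.93, 10.15 and 10.50 in Pyr P12 and 7.50, 7.81 and 7.50 in Pyr P0. All interneuron arrays thus lay above all pyramidal arrays, and newborn pyramidal cells were close to the background of their arrays, 7.13 to 7.38. With the 99th instead of the 95th percentile of the receptor probe sets as background, 7 instead of 8 genes were above it on all Pyr P0 arrays. Grik1 was higher by 3.73 in IN P0 than in Pyr P0, a 13.3-fold difference (SE 0.12, limma adjusted p = 1.09e-10). Between IN P10 and Pyr P12 it was higher by 1.42, a fold of 2.68 (SE 0.12, limma adjusted p = 4.16e-07).

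With age, Grik1 rose by 2.59 in pyramidal cells, 6.02-fold (SE 0.12, limma adjusted p = 5.67e-10). In interneurons the difference between IN P10 and IN P0 was 0.28 (95% interval 0.02 to 0.53, limma adjusted p = 0.0783) and was not called. The 3 arrays of IN P10 nevertheless lay above those of IN P0. The change in interneurons minus the change in pyramidal cells was -2.31 (SE 0.17, limma adjusted p = 2.89e-07), so the gap between the populations was smaller at the older stage. In the order of its levels, from IN P10 through IN P0 and Pyr P12 to Pyr P0, only the first neighbours did not differ past the adjusted p.

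Neto1 encodes an auxiliary protein of kainate receptors that has also been described with NMDA receptors. Its signals were 13.06, 13.21 and 13.23 in IN P10 and 13.64, 13.54 and 13.66 in IN P0. They were 12.16, 12.21 and 12.07 in Pyr P12 and 10.76, 10.89 and 10.41 in Pyr P0. No 2 groups overlapped. Neto1 was higher by 2.92 in IN P0 than in Pyr P0, 7.58-fold (SE 0.10, limma adjusted p = 1.64e-10). In IN P10 it was higher than in Pyr P12 by 1.02, a fold of 2.02 just past the fold threshold (SE 0.10, limma adjusted p = 1.99e-06). Without IN P10 replicate B, IN P10 replicate C or Pyr P12 replicate C this difference was 0.99, 0.98 and 0.98, past the adjusted p but with a fold under 2.

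Neto1 rose by 1.46 in pyramidal cells between P0 and P12, 2.75-fold (SE 0.10, limma adjusted p = 2.98e-08). In interneurons the difference between P10 and P0 was -0.45 (SE 0.10, limma adjusted p = 0.00187), past the adjusted p but not called, with all IN P10 arrays below all IN P0 arrays. The changes of the populations differed by -1.91 (SE 0.14, limma adjusted p = 3.26e-07). Neto1 and Grik1 were the genes of the family for which this difference was called.

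**Figure D2:**
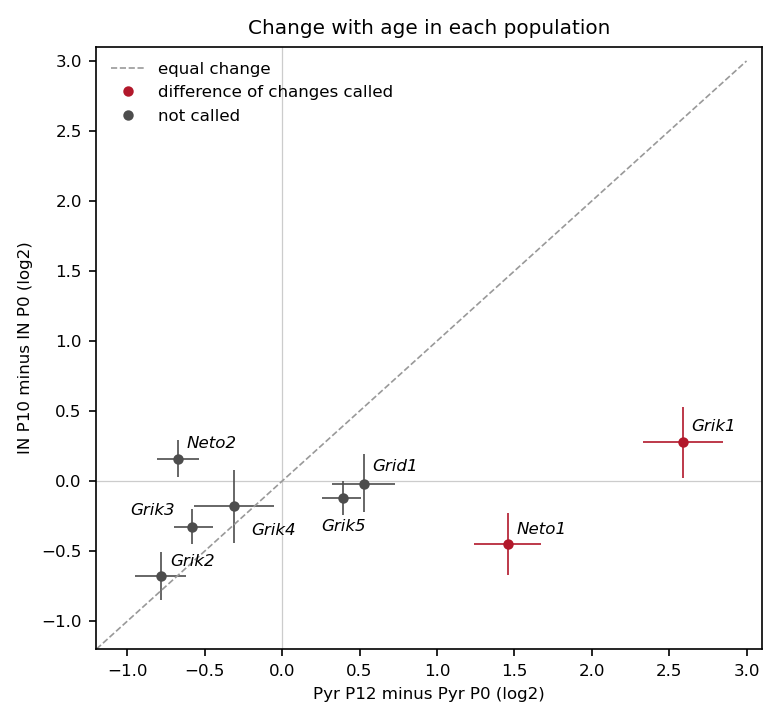
Change of each gene with age in interneurons (y axis, IN P10 minus IN P0, log2) against that in pyramidal cells (x axis, Pyr P12 minus Pyr P0, log2), with 95% intervals, the line of equal change dashed and genes in red where the difference of the changes was called. Grik1 (0.28 in interneurons, 2.59 in pyramidal cells) and Neto1 (-0.45 and 1.46) lie farthest below the line, and Neto2 (0.16 and -0.67) above it.

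Grik2 and Grik3, which encode the GluK2 and GluK3 subunits, had the same order of groups. Grik2, the main subunit of many forebrain kainate receptors, had 11.67, 11.69 and 11.64 in IN P10 and 12.36, 12.26 and 12.43 in IN P0. In Pyr P12 it had 10.36, 10.55 and 10.65, and in Pyr P0 11.20, 11.42 and 11.29. Each age of interneurons therefore lay above both ages of pyramidal cells, and within each population the older arrays lay below the newborn ones. Grik2 was higher by 1.15 in IN P10 than in Pyr P12 (2.21-fold, SE 0.08, limma adjusted p = 4.51e-08). In IN P0 it was higher than in Pyr P0 by 1.04 (2.06-fold, SE 0.08, limma adjusted p = 2e-07). The difference at P0 was 0.99, under the fold threshold, without Pyr P0 replicate A.

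Grik3 had 12.16, 12.25 and 12.32 in IN P10 and 12.57, 12.51 and 12.62 in IN P0. It had 11.09, 11.19 and 11.15 in Pyr P12 and 11.67, 11.70 and 11.79 in Pyr P0. The groups did not overlap. Between IN P10 and Pyr P12, Grik3 was higher by 1.10 in the interneurons (2.14-fold, SE 0.06, limma adjusted p = 3.8e-09). In IN P0 against Pyr P0 it differed by 0.85 (limma adjusted p = 9.06e-08), a fold of 1.80 that was not called.

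With age both genes had lower signals in both populations, past the adjusted p but under the fold threshold, and markers of other cells differed in the same comparisons, as given with the marker lists. For Grik2 the difference was -0.68 in interneurons (limma adjusted p = 5.37e-06) and -0.78 in pyramidal cells (limma adjusted p = 1.19e-06). For Grik3 it was -0.33 in interneurons (limma adjusted p = 0.000331) and -0.58 in pyramidal cells (limma adjusted p = 1.47e-06). The changes of the populations differed for Grik2 by 0.10 (95% interval -0.13 to 0.34, limma adjusted p = 0.521) and for Grik3 by 0.25 (limma adjusted p = 0.0326). In pyramidal cells, Grik1 was thus higher with age by 2.59 while Grik2 and Grik3 had differences of -0.78 and -0.58.

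Since Grik2 and Grik3 ran in parallel over the groups, the 250 bases before their transcription starts are shown (RefSeq, GRCm38.p6). Promoter windows were examined for 5 of the 8 genes (Grik2, Grik3, Grik4, Grik5 and Neto2). Those of Grik1, Neto1 and Grid1 were not examined. Both strands were searched for the homeodomain core TAATTA and for CAGATG, an E-box of the NeuroD type. They were also searched for TGACGTCA, the cyclic AMP response element, for the TATA box as TATAAA and for the GC box as GGGCGG. Capitals mark matches, none of which overlap between motifs. The window of Grik2 is chr10:49788755-49789004 on the minus strand, and that of Grik3 is chr4:125490446-125490695 on the plus strand.
Grik2: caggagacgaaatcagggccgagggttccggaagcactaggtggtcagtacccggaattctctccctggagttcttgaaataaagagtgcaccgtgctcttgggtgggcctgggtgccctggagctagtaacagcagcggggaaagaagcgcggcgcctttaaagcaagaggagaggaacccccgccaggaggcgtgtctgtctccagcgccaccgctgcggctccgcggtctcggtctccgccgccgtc
Grik3: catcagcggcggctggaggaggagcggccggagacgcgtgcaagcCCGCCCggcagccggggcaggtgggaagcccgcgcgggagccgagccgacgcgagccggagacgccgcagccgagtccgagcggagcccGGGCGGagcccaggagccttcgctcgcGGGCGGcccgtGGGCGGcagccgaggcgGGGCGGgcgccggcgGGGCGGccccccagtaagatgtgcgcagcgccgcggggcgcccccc
The Grik2 window held none of the motifs, and the Grik3 window held 6 GC boxes and none of the others. Among 32841 promoter windows of this length, 32.7% held a GC box, 4.84% the homeodomain core, 14.4% the E-box, 1.55% the cyclic AMP response element and 12.4% a TATA box. G and C made up 62.8% of the Grik2 window and 82% of that of Grik3, with 20 and 42 CpG dinucleotides, against medians of 52.4% and 6 over all windows. Both windows thus lay above these medians, with more G and C in that of Grik3. The windows of Grik4 and Grik5, whose levels did not follow this pattern, held 69.6% and 75.2%, and those of Neto2 42.4% and 72%. A match of letters does not show a bound site.

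Grik4 and Grik5 encode the high-affinity subunits GluK4 and GluK5, and neither followed Grik1 to Grik3. Grik4 had 9.13, 8.91 and 9.02 in IN P10 and 8.90, 9.44 and 9.25 in IN P0, groups that overlap. In Pyr P12 it had 9.55, 9.87 and 9.62, and in Pyr P0 9.89, 10.08 and 10.00, all above the interneuron arrays. The difference was -0.66 between IN P10 and Pyr P12 (SE 0.12, limma adjusted p = 0.000561) and -0.79 between IN P0 and Pyr P0 (SE 0.12, limma adjusted p = 0.000229). Both passed the adjusted p, at folds of 1.58 and 1.73, and ran opposite to those of Grik1, Grik2 and Grik3. With age Grik4 differed by -0.18 in interneurons (95% interval -0.44 to 0.08, limma adjusted p = 0.284) and by -0.31 in pyramidal cells (limma adjusted p = 0.044).

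Grik5 had the narrowest span. Its signals were 11.87 to 12.05 in IN P10, 12.03 to 12.09 in IN P0, 12.27 to 12.41 in Pyr P12 and 11.93 to 11.97 in Pyr P0. Pyr P12 arrays lay above all others, and the neighbours below them, IN P0, IN P10 and Pyr P0, did not differ past the adjusted p (0.12 and 0.01 apart, limma adjusted p = 0.114 and 0.918). Between Pyr P12 and Pyr P0 the difference of Grik5 was 0.39 (SE 0.06, limma adjusted p = 5.61e-05). In IN P10 against IN P0 the difference was -0.12 (95% interval -0.24 to 0, limma adjusted p = 0.114). The changes of the populations differed by -0.51 (SE 0.08, limma adjusted p = 0.000305), under the fold threshold.

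Neto2, the relative of Neto1 that also binds the potassium-chloride cotransporter KCC2, had another pattern. Its signals were 12.89, 12.92 and 12.92 in IN P10 and 12.66, 12.70 and 12.90 in IN P0. They were 11.96, 11.92 and 11.95 in Pyr P12 and 12.64, 12.57 and 12.64 in Pyr P0. Pyr P12 arrays thus lay below all others, while the remaining groups lay close together. Between IN P10 and Pyr P12 the difference was 0.97 (SE 0.06, limma adjusted p = 2.16e-08), a fold of 1.96 that was not called. With each array centred on its median it was 1.01 and called. Between IN P0 and Pyr P0 it was 0.13 (95% interval 0 to 0.26, limma adjusted p = 0.158).

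With age Neto2 differed by -0.67 in pyramidal cells (SE 0.06, limma adjusted p = 4.76e-07) and by 0.16 in interneurons (limma adjusted p = 0.0449). The changes of the populations differed by 0.83 (SE 0.09, limma adjusted p = 6.65e-06), a fold of 1.78. In pyramidal cells, Neto1 therefore rose by 1.46 and Neto2 had a difference of -0.67 over the same days.

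Grid1 varied little. It had 11.06, 11.09 and 11.12 in IN P10, 11.02, 11.11 and 11.19 in IN P0 and 11.06, 11.22 and 11.09 in Pyr P12. In Pyr P0 it had 10.33, 10.74 and 10.71. Newborn pyramidal cells were the low group, and the other groups overlapped. The difference was 0.53 between Pyr P12 and Pyr P0 (SE 0.09, limma adjusted p = 0.000311) and 0.51 between IN P0 and Pyr P0 (SE 0.09, limma adjusted p = 0.00105), both under the fold threshold. Between IN P10 and Pyr P12 it was -0.03 (95% interval -0.23 to 0.17, limma adjusted p = 0.821), and with each array centred on its median 0.01.

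Most calls in the family were in the comparisons between populations, and limma called none with the age of interneurons. In IN P10 against Pyr P12, 4 of 8 genes were called, all higher (Grik1, Grik2, Grik3 and Neto1), against 5.56% of 22961 probe sets called in either direction and 2.65% called higher. In IN P0 against Pyr P0, 3 of 8 were called, all higher (Grik1, Grik2 and Neto1), against 3.64% in either direction and 1.9% higher. In Pyr P12 against Pyr P0, 2 of 8 rose (Grik1 and Neto1), against 9.16% in either direction and 5.68% higher. In IN P10 against IN P0, limma called 0 of 8, against 7.04% of all probe sets in either direction, with 5 of 8 at an unadjusted p under 0.05 (11406 of the 22961 probe sets) and 0 called by SAM. For the difference of the changes 2 of 8 were called, both negative (Grik1 and Neto1), against 4.86% in either direction, 2.24% positive and 2.63% negative. With 8 genes these shares move in large steps, and the comparisons share arrays.

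Many probe sets passed the adjusted p alone. It was under 0.05 for 7 of 8 genes in IN P10 against Pyr P12 (46.6% of all probe sets), for 6 in IN P0 against Pyr P0 (22.4%), for 8 in Pyr P12 against Pyr P0 (54.7%), for 4 in IN P10 against IN P0 (45.5%) and for 6 in the difference of the changes (32.1%). Groups did not overlap for 7 of 8 genes in IN P10 against Pyr P12 (59% of all probe sets), 8 in IN P0 against Pyr P0 (32.5%), 8 in Pyr P12 against Pyr P0 (58.1%) and 4 in IN P10 against IN P0 (57.1%). The median difference of the 8 genes was 0.99 in IN P10 against Pyr P12 (all probe sets -0.071), 0.68 in IN P0 against Pyr P0 (-0.004), 0.04 in Pyr P12 against Pyr P0 (0.063) and -0.15 in IN P10 against IN P0 (0.002).

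**Figure D3:**
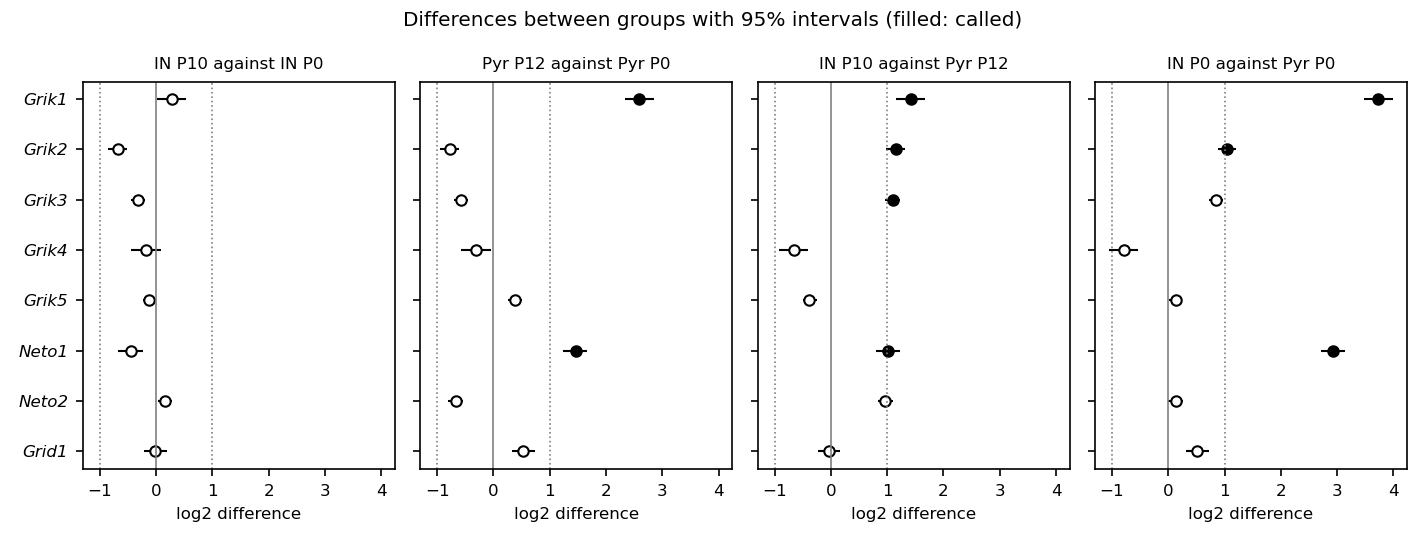
Log2 differences (x axis) of the 8 genes (y axis) in the 4 comparisons, with 95% intervals from limma, filled points for called differences and dotted lines at the fold threshold of 2. Filled points appear for 4 genes in IN P10 against Pyr P12, 3 in IN P0 against Pyr P0, 2 in Pyr P12 against Pyr P0 and 0 in IN P10 against IN P0.

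Markers of other cells were set beside these results. Sorted interneurons had higher pan-interneuron genes (7 of 7 called in IN P10 against Pyr P12 and 7 of 7 in IN P0 against Pyr P0) and lower pyramidal genes (8 of 11 in each). The pyramidal genes not called were Bcl11b, with 0.94 at the older stage and 0.61 at P0, Cux2 (-0.96 and 0.71) and Emx1 (-0.99 and -0.73). The summed linear signal of all 11 was 5498 to 5829 in IN P10, against 33924 to 35305 in Pyr P12. At P0 this pyramidal sum was 11919 to 14225 in IN P0, against 30799 to 32815 in Pyr P0. Oligodendrocyte precursor genes were called higher in interneurons for 9 of 10 at the older stage and 9 of 10 at P0. The summed linear signal of all 10 was 10634 to 17020 in IN P10, against 3277 to 3325 in Pyr P12. At P0 it was 16177 to 19025 in IN P0, against 7806 to 8311 in Pyr P0. Vcan, the gene of the list not called at P0, had means of 12.27 in IN P0 and 12.48 in Pyr P0 (limma adjusted p = 0.317). It was the largest part of the Pyr P0 sum, since the next highest mean there was 9.12, that of Lhfpl3. The part of the oligodendrocyte precursor genes in the higher Grik1, Grik2, Grik3 and Neto1 of interneurons was not tested. Of 9 genes of myelinating oligodendrocytes, limma called 4 higher in interneurons at the older stage (Mag, Cnp, Cldn11 and Ugt8a) and 2 at P0 (Cnp and Ugt8a). Of 7 microglia, 5 endothelial and 5 mural and fibroblast genes limma called none in the 4 comparisons. At an unadjusted p under 0.05 there were 0 in either comparison between populations, and with age 4 microglia genes and 1 mural and fibroblast gene in each population and 2 endothelial genes in pyramidal cells.

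With age in pyramidal cells, where Grik1 and Neto1 rose and Grik2, Grik3 and Neto2 had lower signals past the adjusted p, markers of other cells differed too. Of the 7 pan-interneuron genes, 5 fell, and the summed signal of all 7 was 1491 to 1649 in Pyr P12, against 3293 to 4786 in Pyr P0. Of the 10 oligodendrocyte precursor genes 1 fell, Vcan, with a mean of 9.45 in Pyr P12 against 12.48 in Pyr P0, and the median difference of the list was -0.01. Of the 8 astrocyte genes, 2 rose, the glutamate transporter gene Slc1a2 by 4.17 and Aldh1l1 by 1.29, while Fgfr3 had -0.90, Slc1a3 -0.46 and Gfap -0.02. The summed signal of all 8 was 8056 to 8282 in Pyr P12, against 1815 to 1903 in Pyr P0. Slc1a2 had a mean of 12.72 in Pyr P12 against 8.55 in Pyr P0, and Aqp4 and Gja1 were not above background on any array. The part of these markers in the differences of the receptor genes was not tested.

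With age in interneurons, where Grik2, Grik3 and Neto1 had lower signals past the adjusted p, 4 of 11 pyramidal genes fell (Tbr1, Neurod2, Neurod6 and Cux2). The summed signal of all 11 was 5498 to 5829 in IN P10, against 11919 to 14225 in IN P0. Of the 7 pan-interneuron genes 1 rose and 2 fell, of the oligodendrocyte precursor genes 2 rose and 3 fell, and of the 9 genes of myelinating oligodendrocytes 3 rose (Mag, Cnp and Cldn11). The part of these markers was not tested either.

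Genes of known partners of these receptors were called in both directions. Of 26 partners listed, 23 were measured, and 12 of these were called in at least 1 of the 4 comparisons. In IN P10 against Pyr P12, 3 were higher and 3 lower (2.65% and 2.91% of all probe sets), and in IN P0 against Pyr P0, 5 were higher and 1 lower (1.9% and 1.74%). With age, 3 were higher and 1 lower in interneurons (4.19% and 2.85%), and 6 higher and 1 lower in pyramidal cells (5.68% and 3.48%). The list was drawn up from known interactions, with other results of these arrays known.

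Of the C1q-like genes, which encode secreted organizers, C1ql1 was called between the populations at both stages, C1ql3 at the older stage and C1ql2 at neither. C1ql3, whose product clusters kainate receptors at hippocampal mossy fibre synapses, had 8.43, 7.91 and 7.94 in IN P10 and 10.66, 10.76 and 10.46 in Pyr P12, a difference of -2.53 (SE 0.13, limma adjusted p = 2.71e-09). With age it rose by 3.11 in pyramidal cells, averaging 10.63 ± 0.16 in Pyr P12 and 7.51 ± 0.15 in Pyr P0 (SD, n = 3 each, limma adjusted p = 2.11e-10). C1ql1 was higher in interneurons, by 2.66 against Pyr P12 at the older stage and by 1.96 at P0. C1ql2 had differences of 0.25 between IN P10 and Pyr P12 and 0.07 between IN P0 and Pyr P0 (limma adjusted p = 0.0335 and 0.731). C1ql1 is also known from oligodendrocyte precursors, whose markers were higher in the same arrays. The part of such cells in the C1ql1 differences was not tested.

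The cerebellin genes encode ligands that link GluD receptors to neurexins. Cbln1 had a log2 difference of -1.76 between IN P10 and Pyr P12 (limma adjusted p = 1.79e-09) and of -1.40 between IN P0 and Pyr P0 (limma adjusted p = 2.91e-08). It fell in interneurons with age, with 7.39 ± 0.08 in IN P10 against 8.54 ± 0.21 in IN P0 (SD, n = 3 each). Its IN P10 signals, 7.30 to 7.44, were close to the background of those arrays, 7.20 to 7.27. Cbln2 rose in both populations, by 1.72 in interneurons and 1.54 in pyramidal cells. Cbln4, a cerebellin of somatostatin interneurons, rose by 1.40 in interneurons and had a difference of 0.89 in pyramidal cells. Cbln1 had -0.79 in pyramidal cells and was not called there, and Cbln3 had 0.10 in interneurons and -0.03 in pyramidal cells (limma adjusted p = 0.29 and 0.75). Cbln3 was near background in every group, with means of 7.19 to 7.29. Of the 4 cerebellin genes, 3 were thus called with age in interneurons and 1 in pyramidal cells (7.04% and 9.16% of all probe sets). The difference of the changes was called for none of them. It was -0.36 for Cbln1, 0.18 for Cbln2, 0.12 for Cbln3 and 0.50 for Cbln4 (limma adjusted p = 0.0392, 0.484, 0.353 and 0.0119). Grid1 itself had a difference of -0.02 in interneurons and 0.53 in pyramidal cells.

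Nrxn3, a neurexin gene, was 8.01-fold higher in interneurons at P0 and rose by 1.83 in pyramidal cells, with a difference of the changes of -2.21 (SE 0.13, limma adjusted p = 4.38e-08). Its 3 Pyr P0 arrays, at 10.24, 10.55 and 10.11, were the lowest, as for Neto1. Elfn1, which encodes a postsynaptic protein that recruits presynaptic receptors onto somatostatin interneurons, was higher in interneurons, by 2.65 at the older stage and by 2.10 at P0. Slc12a5, the gene of KCC2, rose by 1.28 in interneurons and by 2.79 in pyramidal cells, while Neto2 had 0.16 and -0.67.

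Among 9 scaffold genes, Grip1, which encodes a PDZ protein of AMPA and kainate receptors, was higher in interneurons, by 1.52 at the older stage and by 1.25 at P0. Its relative Grip2 fell by 1.08 in pyramidal cells with age. Dlg1 and Dlg4, the genes of the scaffolds SAP97 and PSD-95, rose in pyramidal cells by 1.15 and 1.13, and Dlg1 had a difference of -1.07 between IN P10 and Pyr P12. Of the 3 measured genes of turnover, modification and editing (Senp1, Adar and Adarb1), limma called none. At an unadjusted p under 0.05 there were 2 with age in interneurons, 3 with age in pyramidal cells, 0 between the older populations and 1 between the newborn ones.

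**Figure D4:**
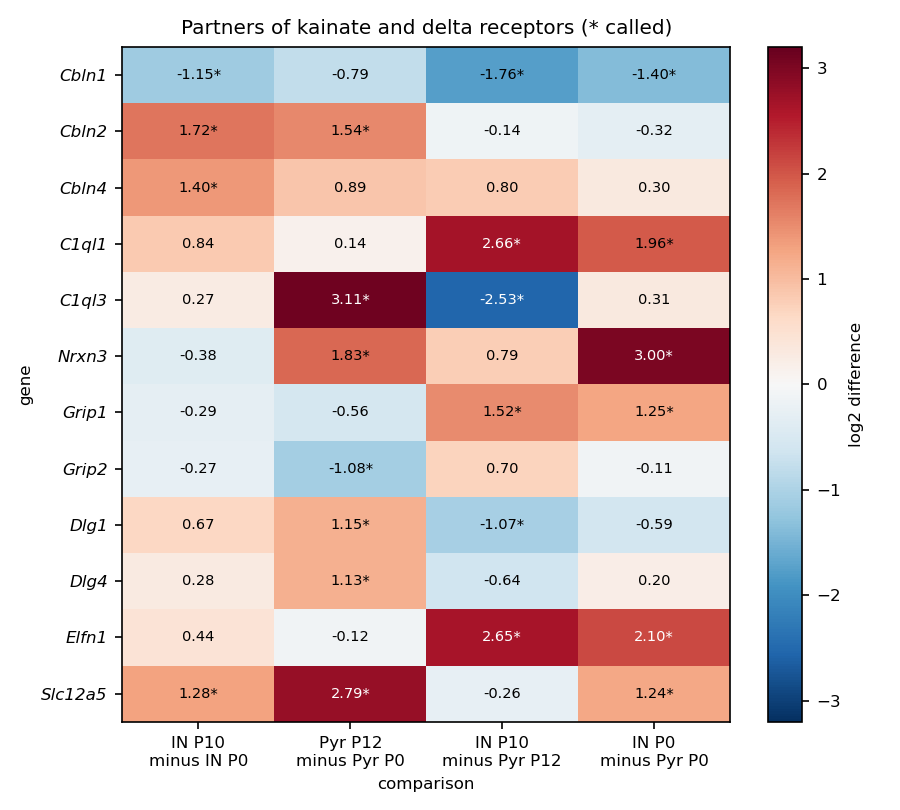
Log2 differences of the 12 partner genes called in at least 1 comparison (y axis) in the 4 comparisons (x axis), with the value printed in each cell, an asterisk where called and color from blue (negative) to red (positive). Elfn1 and C1ql1 are positive in both comparisons of interneurons with pyramidal cells, and C1ql3 has 3.11 with age in pyramidal cells against 0.27 in interneurons.

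Genes with the most similar patterns were sought for the genes whose group means spanned over 1. The measure was the root mean square difference of centred log2 values over the 12 arrays. The search covered 14631 genes above background on at least 1 array. For Neto1 the nearest were Nrxn3 (0.155), Gria1, the gene of an AMPA receptor subunit (0.172), and Tgfb3 (0.231). Those of Grik1 were farther away, with Minar1 at 0.310, Ptprm at 0.395 and Gabrg3, a GABA-A receptor subunit gene, at 0.470. Grik2 had Fgd3 (0.093), Arhgef40 (0.121) and Ugdh (0.122). Grik3 had Dlgap1, a postsynaptic scaffold gene (0.095), Anks1 (0.104) and Arhgef40 (0.112), which both lists hold. These are descriptions over 4 clusters of arrays and carry no test.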

How the data were processed

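The authors hybridized total RNA of sorted cells to Mouse Gene 1.0 ST arrays and processed the scans with RMA in Bioconductor; the deposited values are log2 signals per probe set, with 0 missing among 28192 probe sets and 12 arrays. Versions, annotation release and genome build are not given in the sources used here. Of these probe sets, 22961 had a gene symbol in the platform annotation and were tested, 21640 of them with a single symbol. The 8 member symbols matched the RefSeq table of GRCm38.p6 by gene identifier.

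One linear model of the 4 groups with 8 residual degrees of freedom and no block was fitted with limma 3.58.1 under R 4.3.3, with Benjamini-Hochberg adjustment over all tested probe sets. The methods' own test, SAM, was an alternative, rewritten here with all relabellings, and both were tested on simulated data. Alternatives also covered the fit, filters, scaling, thresholds and leaving out each array. The members and lists were chosen with earlier results of these data known. Named are all 8 members, the partners called in at least 1 comparison, and the 3 genes most like each member spanning over 1. C1ql2, Cbln3, the genes of turnover and editing, and single marker genes were named after their values were seen. Labels give 3 biological replicates per group but not whether animals were pooled. Figures used matplotlib 3.10.9 in Python 3.11.15.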

Additional observations from a re-analysis of the deposited data

Results flagged for a closer look

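The change with age differed between the populations for Grik1 and Neto1, as tested by the difference of the changes in limma. For Grik1 the change in interneurons minus that in pyramidal cells was -2.31 (limma adjusted p = 2.89e-07), with 0.28 in interneurons and 2.59 in pyramidal cells. For Neto1 it was -1.91 (limma adjusted p = 3.26e-07), with -0.45 and 1.46. In Pyr P12 all 3 arrays were above all 3 arrays of Pyr P0 for both genes. The older stages are P10 in interneurons and P12 in pyramidal cells, so age and population cannot be told apart in this difference.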

How the results depend on the processing

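The counts of called members were within 1.5 times of those reported under SAM, 2 groups alone, limma-trend, the replicate block, all 3 choices of probe sets, both scalings, adjusted p under 0.01 and without any single array, and moved only with the fold threshold. With fold over 1.5, 1 member was called in IN P10 against IN P0, 4 in Pyr P12 against Pyr P0 and 5 in IN P0 against Pyr P0. With no fold threshold the counts were 4, 8 and 6, with 7 in IN P10 against Pyr P12 and 6 for the difference of the changes. Over all probe sets, fold over 1.5 and no fold threshold called 4329 and 10442 in IN P10 against IN P0 (1616 reported), 4789 and 12555 in Pyr P12 against Pyr P0 (2103), 2999 and 10691 in IN P10 against Pyr P12 (1277), 1677 and 5143 in IN P0 against Pyr P0 (835), and 2925 and 7364 for the difference of the changes (1117). Without a single array, 3 to 4 members were called in IN P10 against Pyr P12 and 2 to 3 in IN P0 against Pyr P0. Differences that turned sign were close to 0 and not called. For Grid1 these were 0.01 and 0 in IN P10 against Pyr P12 with arrays centred on their medians and with a second quantile normalization, 0.02 there without Pyr P12 replicate B (range -0.06 to 0.02 over arrays left out) and 0.03 in IN P10 against IN P0 without IN P0 replicate C (range -0.06 to 0.03). For Grik4 it was -0.01 in the difference of the changes without IN P0 replicate A (range -0.01 to 0.26). The replicate letters were not taken to pair the arrays. Deviations of same-lettered arrays correlated at -0.18 to 0.19, with 6 of 18 pairs over 0.1. With 3 arrays per group this does not settle whether same-lettered arrays were handled together. With the letter as a replicate block, the called members numbered 0 with age in interneurons and 2 with age in pyramidal cells. They numbered 4 between the older populations, 3 between the newborn ones and 2 for the difference of the changes, all as without the block. SAM and fits of 2 groups were not run for that difference.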
